A study of Mus musculus with 4 samples.

Results

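The genes Ahsg, Fetub, Hrg, Kng2 and Kng1 lie side by side on mouse chromosome 16 and encode plasma proteins of the cystatin superfamily that the liver secretes. All 5 were listed in the deposited liver tables among 8797 genes, and all 5 were among the 3632 genes with a B6-allele frequency in every mouse. They were chosen by name, with earlier results of these data known. The livers came from 4 female F1 hybrids of the inbred strains B6 and MSM, 5 months old, and each mouse carried a chromosome set of either strain and received no treatment named in the labels. In 2 of the mice the mother was MSM and the father B6 (MSM-mother mice), and in the other 2 the parents were exchanged (B6-mother mice). Each gene has 2 deposited values per mouse. The FPKM is the number of fragments per kilobase of transcript, scaled to the mapped fragments of the library. The B6-allele frequency is the share of B6 reads among the reads of a gene that could be assigned to an allele at a known base difference, and 0.5 stands for equal use. Read numbers were not part of the values used, so the depth behind each value is unknown and the spread between mice gives the precision. The labels do not say whether mice of a cross were littermates, and a litter and a cross cannot be told apart.

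Fetuin-A (Ahsg) binds calcium phosphate in plasma and keeps it from precipitating in soft tissue, and fetuin-B (Fetub) inhibits the egg protease ovastacin. Histidine-rich glycoprotein (Hrg) binds heparin, plasminogen and metal ions. Kininogens (Kng1 and Kng2, a pair of genes in the mouse) inhibit cysteine proteases and are the precursors from which kallikreins release bradykinin, a short peptide that dilates vessels and raises their permeability. In an F1 hybrid both alleles of a gene are exposed to the same trans-acting factors, so a difference between the alleles arises in cis, on the chromosome that carries them, and a difference between reciprocal crosses asks whether the parent that transmitted an allele matters.

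In the mm10 annotation (GENCODE M21) the 5 protein-coding genes span 190.8 kb, from 22891277 to 23082078 on chromosome 16. Ahsg lies at 22891277 to 22899449, Fetub at 22918334 to 22939778 and Hrg at 22951072 to 22961656, all on the plus strand. Kng2 lies at 22985854 to 23029482 on the minus strand and Kng1 at 23057865 to 23082078 on the plus strand, so the kininogen genes point away from each other. An antisense gene, Gm30505 (22874983 to 22894386), overlaps the start of Ahsg, and a processed pseudogene, Gm6493 (23014208 to 23017038), lies within Kng2. Neither was listed in the tables. The libraries kept the strand of the RNA.

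The kininogen genes are close copies of each other, and this bears on how their reads could be separated. The coding sequences of Kng2 (1932 bases) and Kng1 (1983 bases) aligned over 1927 bases, of which 1795 (93.1%) were identical in the B6 reference. The 27 bases that encode bradykinin lie in coding exon 10 of either gene, at chr16:22988281-22988307 in Kng2 (minus strand) and at chr16:23078989-23079015 in Kng1 (plus strand). They are shown 5′ to 3′ because both genes encode the peptide through which the kininogens act on vessels, and the capital marks the position where they differ, C12T from Kng2 to Kng1, counted from 1 at the 5′ end.
Kng2: aggcctccaggCttttctcctttccgg
Kng1: aggcctccaggTttttctcctttccgg
Both encode the same peptide, by whose sequence they were found. Ahsg, Fetub and Hrg do not encode it. Of the 2145 windows of 150 bases (the read length) in the longest coding transcript of Kng2, 45 (2.10%) occurred without a mismatch in a transcript of another gene, in each case Kng1. With windows of 75 bases the share was 10.5% for Kng2 and 10.6% for Kng1. In Ahsg, Fetub and Hrg none of 1335, 1448 and 1585 windows of 150 bases was shared with any annotated transcript. The MSM sequence was not used here, and reads with mismatches were not counted. Both the FPKM and the frequencies of Kng1 and Kng2 are therefore given as uncertain to the extent that the aligner could exchange reads between them.

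The RefSeq promoter table (GRCm38.p6, the assembly of mm10) held 4 of the 5 members. Kng1 was not matched. The bases from 150 to 20 before the RefSeq start site are shown 5′ to 3′ on the strand of the gene, since allele use differed so widely between these neighbors. Capitals mark the letters that were searched for. The RefSeq starts of Ahsg (22892015), Fetub (22918382) and Kng2 (23029101) lie inside the GENCODE spans given above. The windows of Ahsg and Kng2 thus lie wholly, and that of Fetub partly, within those spans. For Hrg the start (22951072) is the same in both annotations.
Ahsg, chr16:22891865-22891995, plus strand: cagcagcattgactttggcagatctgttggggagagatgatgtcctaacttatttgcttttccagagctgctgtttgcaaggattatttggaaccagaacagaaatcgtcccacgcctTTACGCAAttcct
Fetub, chr16:22918232-22918362, plus strand: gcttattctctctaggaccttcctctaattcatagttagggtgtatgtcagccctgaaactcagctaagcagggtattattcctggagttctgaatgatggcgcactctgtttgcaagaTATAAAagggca
Hrg, chr16:22950922-22951052, plus strand: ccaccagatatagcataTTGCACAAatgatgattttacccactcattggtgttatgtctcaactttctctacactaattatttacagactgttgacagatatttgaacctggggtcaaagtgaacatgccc
Kng2, chr16:23029121-23029251, minus strand: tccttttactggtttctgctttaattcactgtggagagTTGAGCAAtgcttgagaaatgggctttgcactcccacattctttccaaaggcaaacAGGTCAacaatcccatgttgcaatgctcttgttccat
In the 250 bases before each start, both strands were searched for TATAAA (the TATA box), GTTAAT (a half-site of HNF1), AGGTCA (a half-site of nuclear receptors) and TTGCNNAA (a form of the C/EBP site). TTGCNNAA was found in Ahsg, Hrg and Kng2, that is in 3 of 4 members, against 9.56% of all 32851 promoter windows of that length and 8.09% of the 8603 windows of listed genes. TATAAA was found in Fetub only (12.4% of all windows), AGGTCA in Kng2 only (14%), and GTTAAT in no member (6.43%). Fetub has a second annotated start, and its window held none of the letters. These are matches of letters in the B6 reference. Whether a factor binds there, or whether MSM differs at these bases, was not tested.

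Expression differed widely between the members. Ahsg was among the most abundant messages of these livers, at FPKM of 6678 and 7132 in the MSM-mother mice (replicates 1 and 2) and of 6964 and 7697 in the B6-mother mice (replicates 1 and 2). Its mean of 7118 ± 429 (SD, n = 4 mice) ranked 5 of 8797 listed genes. Kng1, at 1051, 885, 1068 and 1058 in the same order of mice, had a mean of 1015 ± 87.4 and rank 76. Hrg (598, 653, 726 and 787) and Fetub (640, 646, 714 and 752) had means of 691 ± 82.8 and 688 ± 54.2 and the adjacent ranks 125 and 126. Kng2 was lowest, at 118, 116, 136 and 145, with a mean of 129 ± 14 and rank 715.
Per transcript length, the order was therefore Ahsg, Kng1, Hrg and Fetub, and Kng2. Hrg and Fetub did not separate, since Hrg was the higher in 3 of 4 mice and their FPKM ratio was 1.00 ± 0.0478, while every other step in the order was the same in all 4 mice. Ahsg message exceeded that of its relative Fetub by 10.4 ± 0.531 times (range 9.76 to 11), and Kng1 that of Kng2 by 7.91 ± 0.699 times (7.28 to 8.89). The FPKM and ranks of Kng1 and Kng2, and their ratio, are uncertain to the extent that reads could be exchanged between the kininogen genes. The 5 genes together made up 1.35% to 1.82% of the summed FPKM of the listed genes, which hold none under the symbol Alb. Ahsg alone supplied 72.5% to 75.6% of the members' own sum. The lowest share belongs to MSM-mother replicate 1, whose summed FPKM over listed genes was 671875, against 529024 to 572780 in the other mice. Mir3470a, listed at an FPKM of 47025 in this mouse and at 0 in the others, makes up only a part of that gap. The source of the rest was not tested.

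**Figure D1:**
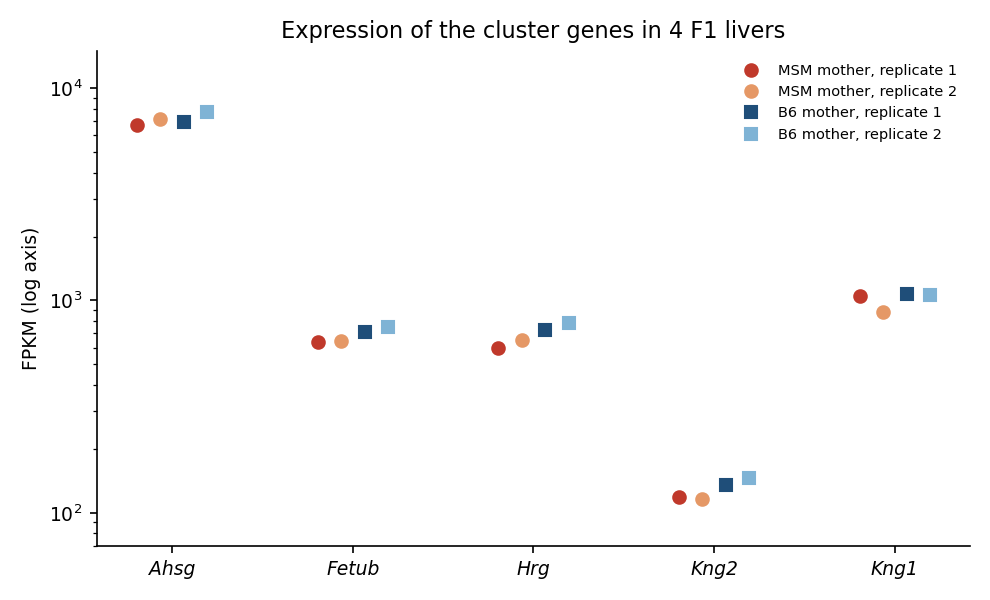
FPKM (log axis) of the 5 cluster genes, ordered along the chromosome, in each of 4 mice, with circles for MSM-mother and squares for B6-mother mice. Ahsg lies near 7118, Kng1 near 1015, Hrg and Fetub overlap near 691 and 688, and Kng2 lies near 129.

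Allele use ranged from mostly MSM to almost wholly B6 within this stretch. Most of the assigned Fetub reads were MSM reads, and its B6-allele frequency was 0.325 and 0.317 in MSM-mother replicates 1 and 2, and 0.286 and 0.290 in B6-mother replicates 1 and 2. Its mean of 0.304 ± 0.0192 (SD, n = 4 mice) corresponds to 2.28 MSM reads per B6 read. Hrg was balanced, at 0.510, 0.509, 0.497 and 0.497 in the same order, with a mean of 0.503 ± 0.0072.
Ahsg leaned slightly to the B6 allele (0.548, 0.569, 0.540 and 0.548, mean 0.551 ± 0.0124), and Kng1 more so (0.612, 0.616, 0.645 and 0.635, mean 0.627 ± 0.0156, or 1.68 B6 reads per MSM read). Almost all of the assigned Kng2 reads were B6 reads, at 0.995, 0.997, 0.998 and 0.998, with a mean of 0.997 ± 0.0017. The values of Kng1 and Kng2 remain uncertain to the extent that reads could be exchanged between them. No mouse of any member overlapped a mouse of another: the highest frequency of Fetub was 0.325 and the lowest of Hrg 0.497, the highest of Hrg was 0.510 and the lowest of Ahsg 0.540, the highest of Ahsg was 0.569 and the lowest of Kng1 0.612, and the highest of Kng1 was 0.645.

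**Figure D2:**
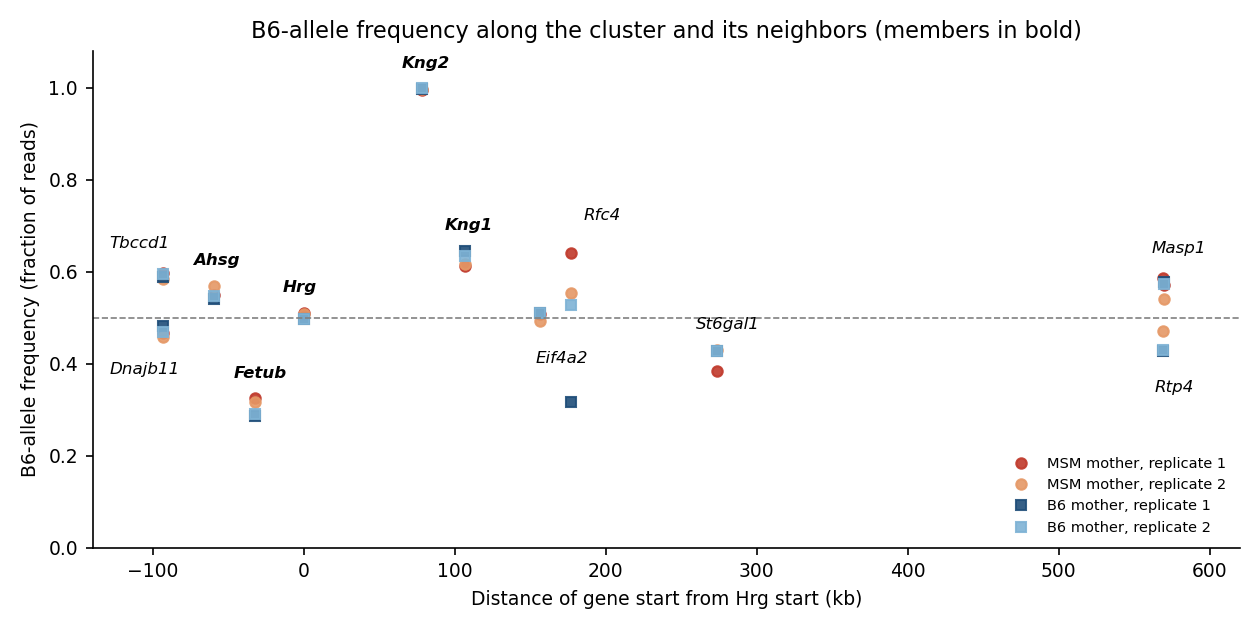
B6-allele frequency in each of 4 mice against the distance (kb) of each gene's annotated start from that of Hrg, for the 5 cluster genes (bold) and the 7 neighbors with a frequency, and the dashed line marks equal use at 0.5. Fetub lies below all other genes shown except a single mouse of Rfc4, and Kng2 lies near 0.997 between Hrg at 0.503 and Kng1 at 0.627.

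The test used the log2 odds of the frequency, kept within 0.01 and 0.99, on which 0 is equal use and 1 is a ratio of 2 B6 reads to 1 MSM read. In a single limma model across all 3632 genes, 4 of 5 members differed from equal use at a threshold of 0.05 on the p-value adjusted by Benjamini-Hochberg, against 36.2% of all genes tested. 3 of them were biased toward B6 (22.6% of all genes) and 1 toward MSM (13.6%). The log2 odds were -1.19 for Fetub (SE 0.04, limma adjusted p = 0.00245), 0.75 for Kng1 (SE 0.04, limma adjusted p = 0.00481) and 0.30 for Ahsg (SE 0.05, limma adjusted p = 0.0245). Hrg, at 0.02 (SE 0.04, limma adjusted p = 0.744), was the member not called.
For Kng2 all 4 mice were set to the limit of 0.99, so its log2 odds of 6.63 is the largest value the limits allow and a lower bound, and its SE of 0.04 comes from the variance shared across genes (limma adjusted p = 3.2e-05). With limits at 0.001 from 0 and 1 it was 8.44. The call of Fetub held with any mouse left out. The values of Kng2 at the limit are the same whichever mouse is left out, so its call was not checked in this way. That of Kng1 was lost without B6-mother replicate 1 (limma adjusted p = 0.0541) or replicate 2 (0.0529), at log2 odds of 0.73 and 0.76. That of Ahsg was lost when any 1 mouse was left out (limma adjusted p of 0.0758 to 0.129), at log2 odds of 0.27 to 0.33.

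By the thresholds of the study, a mean of the crosses of at least 0.8 for B6 or at most 0.2 for MSM, Kng2 was the sole biased member (1.84% of all genes passed the first and 1.35% the second). It passed the first in every mouse. Of the 3632 genes, 6 had a higher mean frequency than Kng2 (rank 7). Fetub stayed short of the lower threshold, with 109 genes at a lower mean frequency than its own. Ahsg, Kng1 and Hrg ranked 939, 307 and 1978 from the B6 end.

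**Figure D3:**
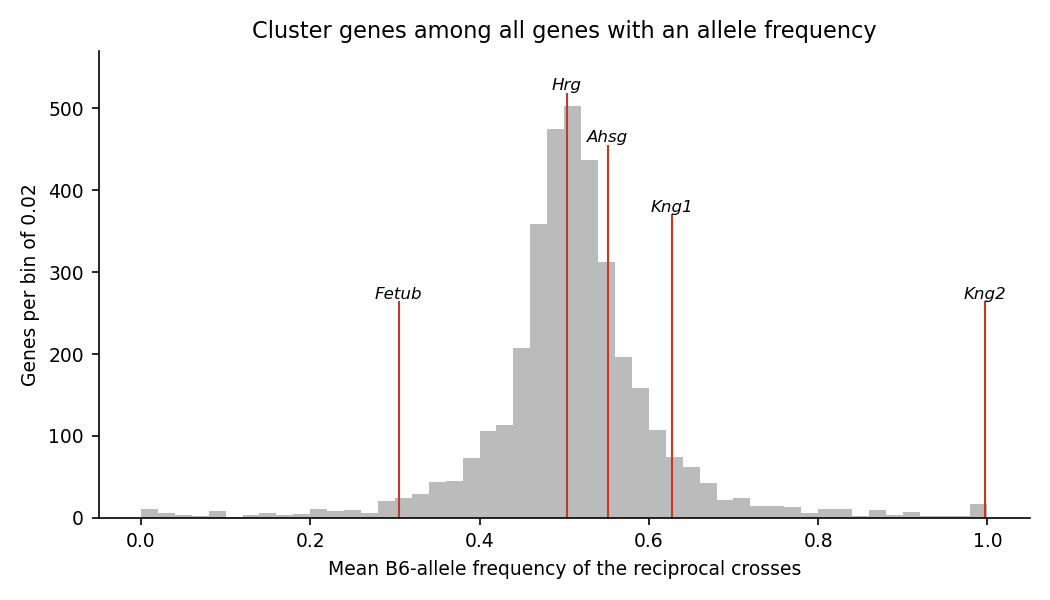
Number of genes per bin of 0.02 (y axis) by mean B6-allele frequency of the reciprocal crosses (x axis) over 3632 genes, with a line for each cluster gene whose height carries no value. Hrg at 0.503 and Ahsg at 0.551 lie in the main peak, Kng1 at 0.627 on its shoulder, Fetub at 0.304 in the lower tail and Kng2 at 0.997 at the right end.

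Members were also compared with each other within each mouse, where library and animal are shared. All 10 pairs differed in log2 odds in the same direction in 4 of 4 mice. An exact two-sided sign-flip permutation test gave p = 0.13 for each, and 0.13 after adjustment over the 10 pairs, which is the smallest p that 4 mice allow. The smallest difference was between Ahsg and Hrg, 0.28 ± 0.06 in log2 odds (SD, n = 4 mice, range 0.22 to 0.35). Ahsg exceeded Fetub by 1.49 ± 0.11, Hrg exceeded Fetub by 1.21 ± 0.09, and Kng1 exceeded Ahsg by 0.45 ± 0.15.
The paralogs Kng2 and Kng1 differed by 5.88 ± 0.10, a lower bound since Kng2 is at the limit, and by 0.370 ± 0.0141 in frequency. To set these steps against other chromosomal neighbors, 2265 pairs of consecutive genes with a frequency and no more than 100 kb apart were listed, and their median absolute difference was 0.38. A difference at least as large as that between Hrg and Kng2 (6.61) was found in 18 of them (0.795%), as that between Kng2 and Kng1 in 30 (1.32%), as that between Ahsg and Fetub in 210 (9.27%) and as that between Fetub and Hrg in 275 (12.1%). At the edges, Ahsg differed from Dnajb11 by 0.48 (41.3% of pairs as large) and Kng1 from Eif4a2 by 0.72 (26.0%).

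The product of FPKM and frequency divides the message of each gene between the alleles. The B6 part of Ahsg was 3924 ± 258 and the MSM part 3194 ± 206 (SD, n = 4 mice). For Fetub the parts were 209 ± 6.53 and 479 ± 50.1, for Hrg 347 ± 37.0 and 344 ± 45.8, and for Kng1 637 ± 64.4 and 378 ± 28.2. The MSM part of Kng2 was 0.249 to 0.644, against a B6 part of 116 to 145. For Kng2 nearly the whole message was thus assigned to the B6 allele in every mouse.
Of the kininogen message of both genes, 66.9% ± 1.58 was assigned to the B6 allele, and 16.8% ± 1.1 of this B6 part was Kng2. Of the fetuin message the B6 share was 52.9% ± 1.34, since Ahsg outweighs Fetub. These products assume that reads without a base difference divide like those with one. The kininogen shares also carry the uncertainty of reads exchanged between Kng1 and Kng2.

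**Figure D4:**
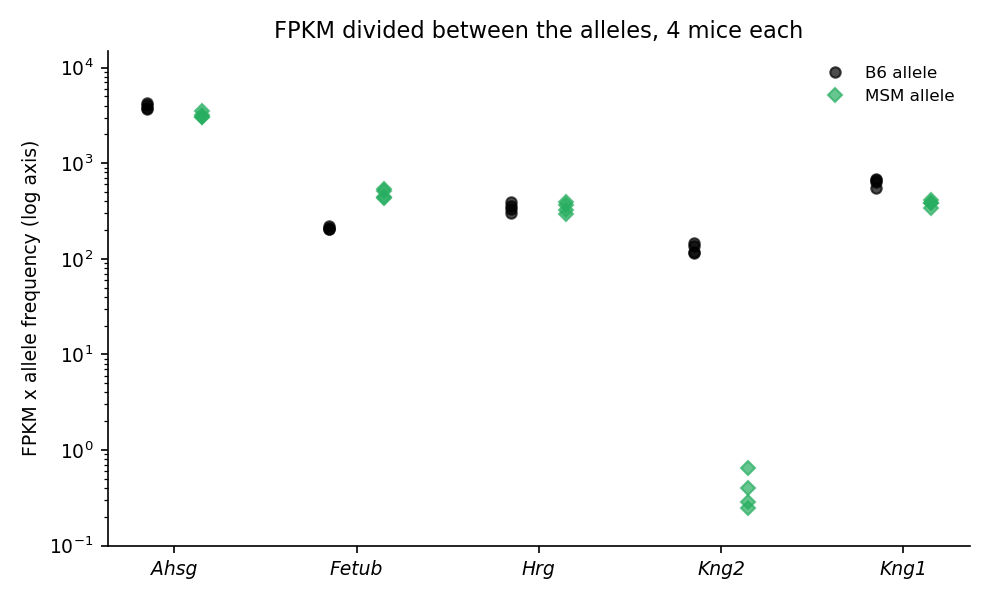
FPKM multiplied by the frequency of each allele (log axis) for the 5 cluster genes, with 4 mice for each allele, black circles for B6 and green diamonds for MSM. The parts overlap for Hrg, the MSM part is the higher for Fetub, and for Kng2 the MSM part lies between 0.249 and 0.644.

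The reciprocal crosses were then compared, since a frequency that follows the mother rather than the strain would differ between them. In limma, 0 of 5 members differed in log2 odds between the crosses (0 also at an unadjusted p under 0.05), against 3 of all 3632 genes (0.0826%) and 190 at an unadjusted p under 0.05. The difference, MSM mother minus B6 mother, was 0.22 for Fetub (SE 0.08, limma adjusted p = 0.873), 0.09 for Ahsg (SE 0.10, 0.929), 0.07 for Hrg (SE 0.08, 0.932) and -0.16 for Kng1 (SE 0.09, 0.873). Kng2 was at the limit in all mice, so its difference of 0 says nothing.
In all 5 members the 2 mice of a cross nevertheless lay apart from those of the other, which was so in 34.3% of all genes. The difference in frequency, MSM-mother minus B6-mother mice, was 0.0326 in Fetub, 0.0148 in Ahsg and 0.0124 in Hrg. It was of the opposite sign in Kng1 (-0.0259) and Kng2 (-0.0025). With 2 mice against 2, an exact permutation test cannot give a p below 0.333. In every mouse Fetub stayed on the MSM side of 0.5, and Kng1 and Kng2 on the B6 side.

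**Figure D5:**
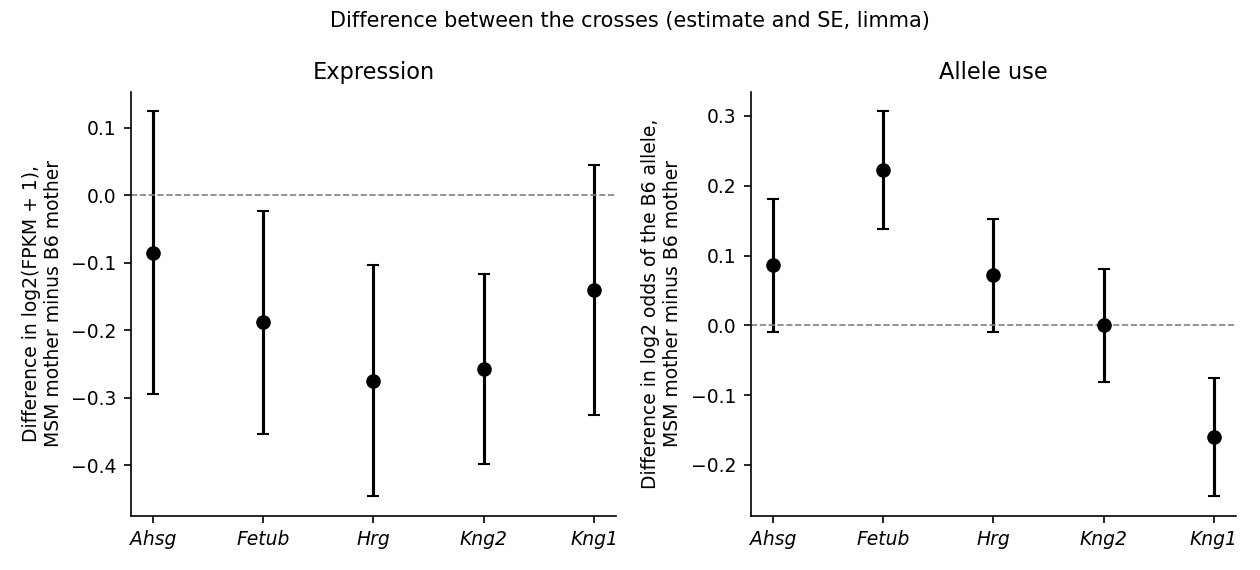
Difference between the crosses, MSM mother minus B6 mother, in log2(FPKM + 1) (left) and in log2 odds of the B6 allele (right) for the 5 cluster genes, as limma estimates with bars of 1 SE. All 5 expression differences lie below 0, from -0.27 to -0.09, and the differences in allele use lie between -0.16 and 0.22.

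The mean level of each member was lower in MSM-mother than in B6-mother mice, and none of these differences passed the test. In limma on log2(FPKM + 1), 0 of 5 members were called (0 also at an unadjusted p under 0.05), against 4 of 8797 genes (0.0455%) and 780 at an unadjusted p under 0.05. The difference, MSM mother minus B6 mother, was -0.27 for Hrg (SE 0.17, limma adjusted p = 0.634), -0.26 for Kng2 (SE 0.14, 0.618), -0.19 for Fetub (SE 0.17, 0.708), -0.14 for Kng1 (SE 0.19, 0.811) and -0.09 for Ahsg (SE 0.21, 0.902). The median over all genes was 0.02. Both mice with an MSM mother lay below both with a B6 mother in Fetub, Hrg, Kng1 and Kng2, and this order was found in 19.4% of all genes. In Kng1 the gap was narrow, from 1051 to 1058.
Scaling each mouse to the same FPKM sum moved the median of all genes to -0.10 and the members to between -0.40 and -0.21. No scaling turned a direction. The sums of some sets of cell markers also differed between the crosses, with no marker called. The summed FPKM of 5 of 7 Kupffer cell and macrophage markers (Marco and Adgre1 were not listed) was 113 to 123 with an MSM mother and 151 to 164 with a B6 mother, that of 7 of 7 sinusoidal endothelial markers 133 to 140 against 151 to 154, and that of 4 of 5 erythroid markers (without Hbb-bt) 128 to 308 against 449 to 769. Among the endothelial markers, Stab2, Pecam1, Kdr and Dnase1l3 were lower in both MSM-mother mice. Clec4g (69.1 and 54.8 against 61.0 and 71.8), Lyve1 and Oit3 overlapped between the crosses. The erythroid gap lay mainly in Hba-a2 (175 and 83.2 against 610 and 398), and Hbb-bs went the same way at lower FPKM. Hba-a1 (124 and 36.0 against 136 and 23.6) and Alas2 overlapped between the crosses. For 4 of 7 stellate cell markers (Lrat, Des and Col1a1 were not listed) the sums were 201 to 214 against 189 to 202, and for 1 of 6 cholangiocyte markers (Spp1) 9.51 to 14.6 against 12 to 12.3. In both of these sets the ranges overlapped. Among the stellate cell markers Dcn alone was clearly higher with an MSM mother (0.36 on the log2 scale). Col3a1 (-0.19), Ecm1 (-0.07) and Reln (-0.006) were lower or flat. None of 6 lymphocyte markers was listed. Of 7 hepatocyte markers, 6 were listed (Ttr, Apoa1, Apob, Tat, Cps1 and Asgr1), and no gene was listed under the symbol Alb. The 6 summed to 14843 to 15025 with an MSM mother and to 10530 to 13212 with a B6 mother. Of these 6, Apob differed in the other direction (-0.31 on the log2 scale, not called). The part of these differences in the member values was not tested, and in whole liver fewer cells of a type and less RNA per cell cannot be told apart.
By the shape of expression over the 4 mice (log2 FPKM minus the mean of the gene), the 5 genes nearest to the median profile of the members, among 4788 genes whose mean FPKM reached 10 and whose FPKM was above 0 in every mouse, were Ddost, Fndc3a, Akap8l, Txndc5 and Krt8. Their root mean square differences from it were 0.0104 to 0.0178. Of the members, Fetub was nearest at 0.0104 (rank 1) and Kng1 farthest at 0.10 (rank 687), so many genes outside the cluster lay nearer to its median profile than Kng1 did. The members entered that median, and the profile has only 4 points.

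Around the cluster, within 500 kb on either side, 8 further annotated genes were listed, and 7 had a frequency. Their mean frequencies ran from 0.417 to 0.592, a range that holds Hrg and Ahsg and leaves out Fetub, Kng1 and Kng2. 3 of the 7 were called, 2 toward B6 and 1 toward MSM, against 36.2%, 22.6% and 13.6% of all genes tested. Tbccd1, which is needed for the placing of centrosome and Golgi, was at 0.592 ± 0.0059 (limma adjusted p = 0.00777), and Masp1, a protease of the lectin pathway of complement, at 0.565 ± 0.0169 (limma adjusted p = 0.0193). St6gal1, the sialyltransferase of plasma glycoproteins, leaned to MSM at 0.417 ± 0.0219 (limma adjusted p = 0.0184).
The genes that flank the cluster directly, Dnajb11 (an endoplasmic reticulum chaperone) and Eif4a2 (a translation initiation factor), were at 0.469 ± 0.0096 and 0.505 ± 0.0089. Their limma adjusted p-values were 0.0564 and 0.609. Rfc4 (0.509 ± 0.138) and Rtp4 (0.479 ± 0.0740), with mean FPKM of 2.66 and 5.66, varied most between mice. Snora81, a snoRNA gene within Eif4a2, had an FPKM and no frequency.

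The proteins that act with the kininogens were followed in a list of 18 genes of contact activation and the kallikrein-kinin system, of which 11 were listed. F12 (factor XII, mean FPKM 268) and Klkb1 (plasma prekallikrein, 92.1), which activate each other on surfaces, F11 (34.8) and their inhibitor Serping1 (373) had no frequency. 3 of the 11 had one, with a median log2 odds of -0.15 against 0.06 over all 3632 genes. Cpn2 and Cpn1, the subunits of the carboxypeptidase that trims bradykinin, were both called, in opposite directions. Cpn2 leaned to B6, at 0.585 ± 0.0027 (limma adjusted p = 0.00777), and Cpn1 to MSM, at 0.425 ± 0.0097 (limma adjusted p = 0.0103). None of the 11 was called for expression between the crosses, where their median difference was -0.10.
Of a list of 11 cystatin superfamily symbols, 1 of which (Fetua) is an older name of fetuin-A and so of a member, 3 were listed, Spp2 (mean FPKM 287), Cst3 (166) and Cstb (28.4). Cst3, cystatin C, had a frequency, 0.723 ± 0.0121, and was called toward B6 (log2 odds 1.39, limma adjusted p = 0.00289). Of 17 genes whose products bind or meet the fetuins and histidine-rich glycoprotein, 10 were listed and 4 had a frequency, with a median log2 odds of 0.19. Serpinc1 (antithrombin), which shares heparin as a ligand with histidine-rich glycoprotein, was called toward B6 at 0.538 ± 0.0054 (limma adjusted p = 0.0364). Plg (plasminogen), at a mean FPKM of 1283, was at 0.485 ± 0.0048 and was not called (limma adjusted p = 0.199). None of these 13 listed genes was called for expression, with median differences of 0.18 in the cystatin list and -0.06 in the partner list.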

How the data were processed

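Poly(A) RNA from 4 livers was sequenced as 150-bp pairs by the authors. After trimming (Trim Galore!), reads were placed by Tophat2, 1 location each, on an mm10 genome with SNP positions masked. SNPsplit then sorted them by allele, and Cuffdiff gave values per gene. The authors deposited an FPKM value and a fraction, the B6-allele frequency, for each gene and mouse. Tool versions are not given in the sources used here. No read counts were used, so depth is unknown.

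Groups came from the sample titles. Allelic imbalance and the cross term were fitted with limma 3.58.1 (R 4.3.3) on log2 odds, with frequencies limited to 0.01 to 0.99, and expression with a variance trend on log2(FPKM + 1), a scale that understates changes of low genes, where the mean FPKM reached 1. P-values were two-sided and adjusted by Benjamini-Hochberg over all genes (threshold 0.05), and the fits were tested on simulated data. The replicates are separate mice. Python 3.11.15, pandas 2.3.3, scipy 1.17.1 and Biopython 1.88 handled tables, permutations and alignments. Positions and transcripts were from GENCODE M21.

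The members and lists were chosen with earlier results of these data known. Named genes were the members, listed neighbors within 500 kb, the 5 genes nearest in profile, and from each list the called genes. Other list genes without a call were named for their role, or for the size of their difference, after their values were seen. Alternatives were other limits, scales, filters, pseudocounts and scalings, a replicate block and each mouse left out.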

Additional observations from a re-analysis of the deposited data

How the results depend on the processing

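Over all genes, the calls of imbalance (822 toward B6 and 494 toward MSM) fell to 521 and 329 at a mean FPKM of at least 10, where fewer genes were tested, to 481 and 294 with a replicate block, and to 108 to 315 and 73 to 199 with a mouse left out. Among the members, the number of calls toward B6 fell from 3 to between 1 and 2 with a mouse left out. The log2 odds of Hrg turned to -0.037 when each mouse was centered on a median of 0, without a call (limma adjusted p of 0.555 to 0.853 over its alternatives). Calls between the crosses (3 genes) became 1 with limits at 0.001 from 0 and 1, 1 at a mean FPKM of at least 10 and 0 to 6 with a mouse left out. Expression calls (4 genes) became 20 with equal sums and 13 to 23 with a mouse left out. Biased genes (67 and 49) numbered 138 and 103 with thresholds of 0.7 and 0.3, and 44 B6-biased genes passed in every mouse. The cause of these changes was not tested. No member was called between the crosses under any of these settings.

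Equal replicate numbers are not said to share a litter or batch. The difference between replicates 1 and 2 correlated between the crosses, over genes, with r of 0.146 for log2 odds and 0.0038 for log2(FPKM + 1). With the replicate block, Ahsg lost its call of imbalance at the same log2 odds of 0.30 (limma adjusted p = 0.0643, range 0.0155 to 0.129 over all alternatives), the other members kept theirs, and 285 genes in place of 4 were called for expression. Depth limits are unknown, since the values used hold no read counts.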

Other observations

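Acute-phase plasma proteins, a list of 18 genes that were all listed, were looked at because fetuins and kininogens share their source in hepatocytes. None was called for expression between the crosses, and the median difference was 0.13 on the log2(FPKM + 1) scale, MSM mother minus B6 mother, against 0.02 over all genes. The FPKM of Saa1, a serum amyloid A gene, was 77.5 and 57.8 in MSM-mother mice and 32.7 and 33.4 in B6-mother mice (limma adjusted p = 0.324). Its difference of 1.00 was the largest of the list and was picked out for that. Apcs (-0.44) and Itih4 (-0.43) differed most in the other direction. Of the 5 with a B6-allele frequency, Hpx (hemopexin) at 0.543 ± 0.0059 (SD, n = 4 mice) and Serpina3n at 0.538 ± 0.0082 were called toward B6, with limma adjusted p-values of 0.0299 and 0.0340. Fgb, the beta chain of fibrinogen, was called toward MSM at 0.311 ± 0.0975 (limma adjusted p = 0.00585), and its mice ranged from 0.207 to 0.40. In MSM-mother mice it was at 0.207 and 0.25, and in B6-mother mice at 0.389 and 0.40, a difference that was not called (limma adjusted p = 0.626). The number of assigned Fgb reads is unknown. Simple fractions such as 0.25 and 0.40 can come from very few reads, so its bias and its difference between the crosses are uncertain.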
